A study of Mus musculus with 42 samples.

Results

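The chaperonins are the barrel-shaped chaperones in whose cavity other proteins fold. The genes described are the 8 genes of the cytosolic chaperonin CCT (Tcp1, Cct2, Cct3, Cct4, Cct5, Cct6a, Cct7 and Cct8) and the 2 genes of the mitochondrial chaperonin, Hspd1 (HSP60, the barrel) and Hspe1 (HSP10, its lid). They were chosen by symbol, and they are 10 of the 12347 genes counted by RNA-seq in this series. In 3′READS, a method that sequences the 3′ ends of polyadenylated RNA and so counts polyadenylation sites (PASs), they were followed through every PAS inside their gene span or up to 4000 nt past its end on the same strand, before the next gene. These are 79 of 83916 PAS clusters.

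The study asked how arsenite stress alters the 3′ ends and the amounts of mRNAs in cultured mouse cells. There are 38 3′READS and 4 RNA-seq libraries, and the labels list the strain C57BL/6 for all of them. NIH3T3, a mouse embryonic fibroblast line, was left untreated (NT), harvested after 1 h in 250 µM sodium arsenite (AS), or harvested 4, 8, 12 or 24 h after the arsenite was washed out (RC4, RC8, RC12 and RC24). C2C12, a mouse myoblast line, was used as proliferating myoblasts (MB) and as differentiated myotubes (MT).

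Total NIH3T3 RNA gave 3 NT and 3 AS libraries in sets numbered 1, 2 and 4, and 1 library each of RC4, RC8, RC12 and RC24 in set 4. RNA-seq covered NT (2 libraries), AS and RC4 (1 each). Newly made RNA was labelled with 50 µM 4-thiouridine (4sU) for 1 h before harvest, and the labelled fraction (4sU) and the unlabelled flow-through (Ft) each gave 2 NT, 1 AS and 1 RC4 library. RNA bound by the RNA-binding protein TIA1, found in stress granules, was pulled down with an antibody from the cytoplasm of NT and AS cells and compared with the cytoplasmic input, with 2 libraries of each. Cytoplasmic RNA of MB and MT cells gave 2 NT, 1 AS and 1 RC4 library for each cell state, and total RNA of untreated MB and MT cells gave 2 libraries each. In RNA-seq, the fractions and C2C12 cytoplasm, 1 NT library was harvested at 0 h and the other at 4 h, and the pair served as 1 group.

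CCT is a pair of stacked rings in which each of the 8 subunits has a fixed place, and it folds actin and tubulin with the help of the cofactor prefoldin. HSP60 forms a ring of identical subunits in the mitochondrial matrix, and HSP10 closes it while an imported protein folds inside. The mitochondrial pair is a textbook target of the heat shock response, in which the transcription factor HSF1 binds heat shock elements, repeats of the unit NGAAN in alternating orientation.

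Hspd1 and Hspe1 lie head to head on chromosome 1 and share 1 promoter, which is shown because these genes moved most. In the RefSeq promoters (GRCm38.p6, 250 bases before to 50 bases after each gene start), 9 of the 10 genes were found, and Cct4 was not in the table. 4-unit elements (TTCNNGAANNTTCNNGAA or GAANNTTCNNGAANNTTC, both strands) were in the promoters of 8 of 27025 genes (0.0296%), Hspd1 and Hspe1 among them. Both printed windows are chr1:55088053-55088082, read on the strand of each gene. The element, in capitals, starts 89 bases before the Hspe1 start and 144 bases before the Hspd1 start.
Hspe1: ggtccgTTCTAGAACCTTCCGGAAggcccc
Hspd1: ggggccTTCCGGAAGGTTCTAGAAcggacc

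The shorter 2-unit motif (GAANNTTC or TTCNNGAA, contained in the longer one) was in 5 of the 9 promoters, those of Cct2, Cct5, Cct6a, Hspd1 and Hspe1, against 17.0% of all genes. A 3-unit motif (GAANNTTCNNGAA or TTCNNGAANNTTC) was in 0.662% of genes and in no CCT promoter of the table. A match describes the letters of the window and not binding.

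The 3′ ends that carry the isoform results belong to Hspe1, Cct4 and Cct5. Each line gives the 30 bases ending at the site in mm9, with the poly(A) signal in capitals. The Hspe1 windows are chr1:55148052-55148081 and chr1:55148127-55148156 on the plus strand, the Cct4 windows chr11:22903308-22903337 and chr11:22906207-22906236 on the plus strand, and the Cct5 windows chr15:31520638-31520667 and chr15:31520568-31520597 on the minus strand. The distal site lies 75, 2899 and 70 nt further on, respectively. The distal sites of Hspe1 and Cct4 lie past the annotated end of the gene.
Hspe1 proximal: tttatAATAAAcagatgatgcctaaactga
Hspe1 distal: tttccaAATAAAatgatgtaaatgagtgga
Cct4 proximal: aaaacATTAAAtacttggttttaaactcca
Cct4 distal: aagttttAATAAAggatgccagggtctcaa
Cct5 proximal: actgtgactaAATAAAgggtgtgtctgttg
Cct5 distal: gatgctggAATAAAagcagctgtctggtaa

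Cct4 thus carried ATTAAA at its main site and AATAAA at the distal one. The main sites of Tcp1 and Cct3 had ATTAAA, and those of Cct2, Cct5, Cct6a, Cct7, Cct8 and Hspe1 had AATAAA. Of 44177 3′UTR PASs of all genes, 37.7% had AATAAA within 40 bases upstream and 14.1% had ATTAAA without AATAAA. In the Hspe1 site, 4 other places in the genome matched the last 50 bases at 95% or more, none of them identical, so its reads could in part be shared with copies. Tcp1 and Cct3 each had 1 such place and the remaining genes none. Over the last 100 bases before the main site, Hspe1 had 2 such places, Tcp1 and Cct4 had 1 each, and the remaining genes none.

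The 3′READS libraries held 1048335 to 6974664 reads and the RNA-seq libraries 17137579 to 25194062. Files list only sites or genes with at least 5 reads, so 0 means not listed. Fibroblast markers were listed in 3′READS of NIH3T3 total RNA (6 of 6, summing to 2005 to 7007 normalised RPM, that is reads per 1000000 reads assigned to genes, scaled between libraries by median ratios), and no epithelial marker was listed there. RNA-seq listed 2 epithelial markers in AS and 3 in RC4, summing to 0.43 and 4.80 normalised RPM. Summed myotube markers were 25040 and 26530 in MT and 81.1 and 85.4 in MB total RNA, as the labels say. Of 9 known arsenite-response genes, 9 rose at RC4 in RNA-seq, Hmox1 by 6.78 on the log2 scale. The 3 sets of total NIH3T3 RNA stood far apart from each other, while NT and AS libraries of the same set deviated together, and results in total RNA are therefore given with and without the set as a block. In bulk RNA, fewer cells and less RNA per cell cannot be told apart. The study calls replicates biological where it names them, without saying what was grown apart, and the p-values measure the spread between these libraries.

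RNA-seq counts on coding sequences gave the order of the chaperonins per length. In NT cells, Hspe1 was highest at 784 and 798 normalised RPKM (normalised RPM per kilobase of coding sequence). Hspd1 followed at 477 and 565. The CCT genes ran from Cct2 at 389 and 412, Cct3 at 363 and 399, Tcp1 at 333 and 363 and Cct8 at 269 and 332 down to Cct4 at 135 and 163. Cct2, Cct3 and Tcp1 kept this order in both NT libraries, although the ranges of neighbours overlapped. Cct5, Cct6a and Cct7 changed places between the 2 NT libraries, so that their order is not resolved.

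At 4 h of recovery, all 10 chaperonin genes were higher than in NT cells by RNA-seq, and the mitochondrial pair rose far more than CCT. Hspd1 was at 821 and 972 normalised RPM in NT, 790 in AS and 10347 in RC4. Hspe1 was at 240 and 244 in NT, 311 in AS and 2620 in RC4. Both RC4 values lie far above the other 3 libraries, a log2 fold change of 3.53 ± 0.12 (SE) for Hspd1 and 3.44 ± 0.13 for Hspe1, or 11.6-fold and 10.8-fold (edgeR quasi-likelihood test, adjusted p = 8.2e-14 and 1.9e-13). The RC4 and AS groups have 1 library each, whose spread was taken from the NT pair. Of all 11631 genes tested, 26.6% were called higher at RC4, against 10 of 10 chaperonins.

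Among the CCT subunits, Cct7 rose most, from 308 and 318 in NT to 783 in RC4, by 1.32 ± 0.14 on the log2 scale (adjusted p = 2.4e-07). Cct8 went from 443 and 546 to 991, a log2 fold change of 1.01 ± 0.14. Cct2 went from 625 and 661 to 1273 (0.99 ± 0.13). Tcp1, which encodes CCT subunit alpha, and Cct3 each had 0.79 ± 0.13, Cct4 0.76 ± 0.15 and Cct5 0.72 ± 0.14, with adjusted p between 5.1e-06 and 0.00044 for Cct2, Cct8 and these. Cct6a had the smallest change, 273 and 340 in NT against 403 in RC4 (0.40 ± 0.15, adjusted p = 0.041), and DESeq2 (adjusted p = 0.075) and TMM scaling (0.086) did not call it. The 8 subunits summed to 3297 and 3704 normalised RPM in NT, 3126 in AS and 6426 in RC4.

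**Figure D1:**
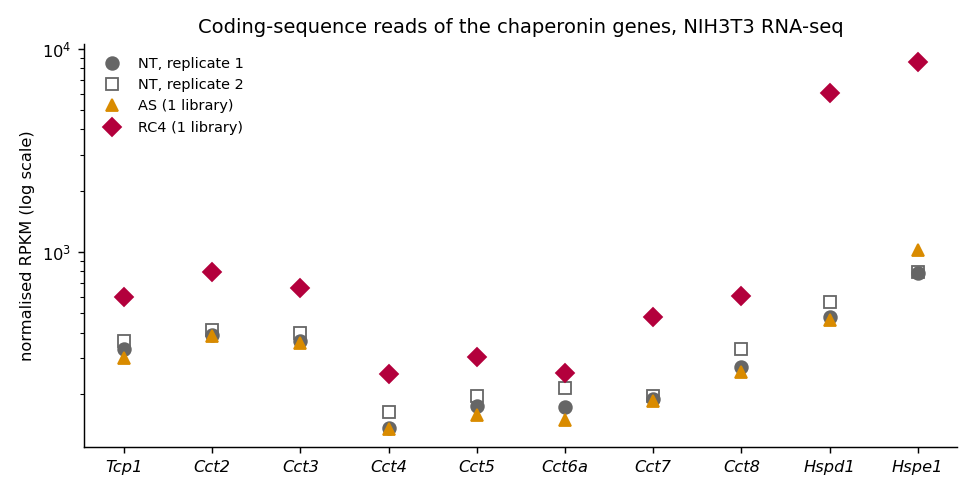
Normalised RPKM (log axis) of the 10 chaperonin genes in the 4 RNA-seq libraries of NIH3T3 cells, 1 symbol per library. The RC4 library lies above the other 3 for every gene, by far the most for Hspd1 and Hspe1.

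This result depends on how the RC4 library is scaled. When reads were scaled by library totals alone, a setting added once the data had been examined, the median of all genes stood at -0.80 on the log2 scale. Hspd1 (2.72), Hspe1 (2.63) and Cct7 (0.52, adjusted p = 0.0032) were still called higher, with 9.96% of all genes, and Cct6a was called lower (-0.41, adjusted p = 0.031), with 56.4% of all genes. Tcp1 (-0.02), Cct3 (-0.01), Cct4 (-0.05) and Cct5 (-0.09) changed sign and were not called, and Cct2 (0.18) and Cct8 (0.20) were not called. The median over the 8 CCT genes was then -0.02, which is above the median of all genes as it is with median ratios (0.79 against 0.00). Against the NT library of the same harvest time alone, the log2 ratios were 0.25 for Cct6a to 1.30 for Cct7, 3.41 for Hspd1 and 3.42 for Hspe1, with no test. Summed markers of proliferating cells (7 of 8 listed) were 981 to 1064 normalised RPM in NT and 684 in RC4, and their part in these changes was not tested.

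Other genes of protein folding were counted in the same comparison. All 18 of 18 cytosolic heat shock chaperones were higher at RC4 with a median of 3.49, led by the HSP70 genes Hspa1a (9.59 ± 0.14) and Hspa1b (9.54 ± 0.15), near-identical copies whose reads may be shared, and by Hspb1, not listed in either NT library and at 13821 reads in RC4, for which no fold is given. The median stays the same for any Hspb1 value above it. Of 12 genes of mitochondrial protein quality control, 4 rose and 3 fell, with a median of -0.26. The largest changes were in Hspa9, the mitochondrial HSP70 (1.97 ± 0.12), Lonp1, a matrix protease (1.85 ± 0.15), and Htra2 (-1.14 ± 0.23). Of 9 prefoldin and CCT cofactor genes only Pdcl, a phosducin-like cofactor, rose (0.44 ± 0.17, adjusted p = 0.039), and the median was 0.19. Of 13 actin, tubulin and tubulin cofactor genes, CCT substrates and their assembly partners, 3 rose and 2 fell, led by Tubb6 (1.31 ± 0.14), Tbce (1.26 ± 0.21) and Tuba1c (0.81 ± 0.13). Scaled by library totals, 18 of 18 heat shock chaperones were still higher, where 9.96% of all genes were. Called lower were 6 of 9 prefoldin genes, 10 of 13 substrate genes and 8 of 12 mitochondrial genes, where 56.4% of all genes were.

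Directly after the 1 h of arsenite, no chaperonin was called by RNA-seq, where 4.03% of all genes were. The edgeR test gave 2 members an unadjusted p under 0.05, Hspe1 (0.36 ± 0.13, adjusted p = 0.16) and Cct6a (-0.37 ± 0.16, adjusted p = 0.26), and DESeq2 called none. All 8 CCT genes had values below 0, between -0.37 and -0.06, none of which passed the test, and Hspd1 had -0.18 ± 0.13. Against the NT library of the same harvest time alone, the log2 ratios were -0.20 (Cct6a) to -0.0018 (Cct4) for CCT, -0.06 for Hspd1 and 0.37 for Hspe1, with no test. At this time 13 of the 18 cytosolic heat shock chaperones were already higher.

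**Figure D2:**
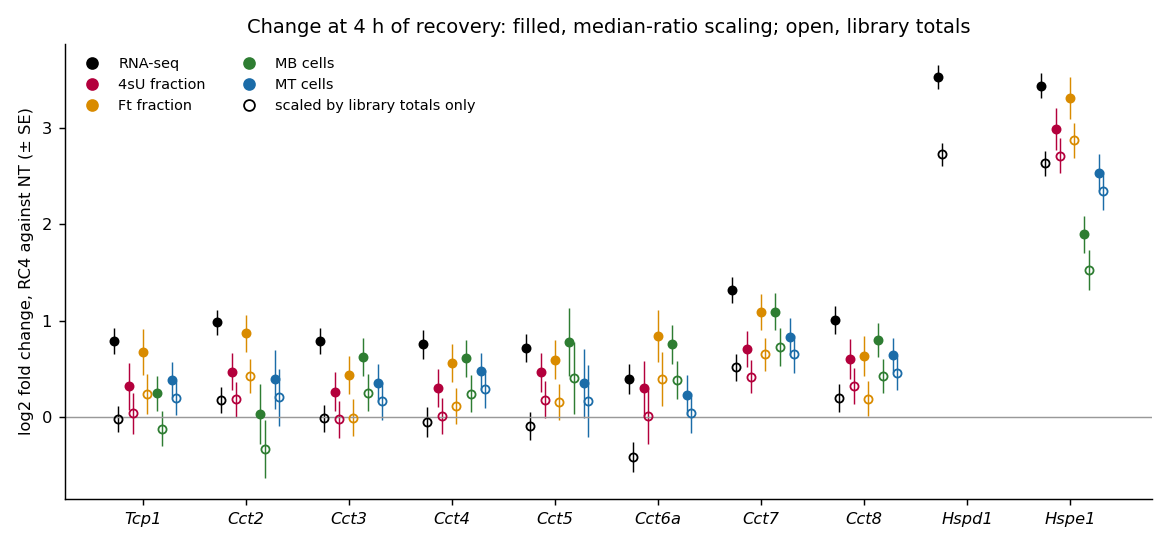
Log2 fold change with SE of each chaperonin at 4 h of recovery against NT in 5 data sets, filled with median-ratio scaling and open with library totals. Hspe1 lies between 1.53 and 3.44 throughout, and the open symbols lie below the filled ones. Hspd1 is drawn for RNA-seq only.

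In 3′READS, Hspd1 was almost absent, with 43 reads over all 38 libraries against 205491 for Hspe1. They fell on 3 PASs, with 21 reads in Ft RC4, 5 in 4sU RC4 and 5 or 6 in each of 3 further libraries. RNA-seq counted 18026 and 19254 Hspd1 reads in the NT libraries and 172527 in RC4. The gene therefore cannot be followed by 3′READS, no fold change is given for it, and the counts of members below are over the 9 others.

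The time course in total RNA followed the mitochondrial lid over a day. In set 4, Hspe1 was at 1149 normalised RPM in NT, 1311 in AS, 4416 in RC4, 2097 in RC8, 1396 in RC12 and 1167 in RC24. The highest value came at RC4, and at RC24 Hspe1 was close to its NT value. NT and AS of the other sets were 790 and 955 in set 1 and 730 and 992 in set 2, so that AS was above NT in each of the 3 sets and RC4 above all 9 other libraries.

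With the set as a block, Hspe1 was 2.00 ± 0.20 higher at RC4 (log2, edgeR, adjusted p = 0.0039), the only member of 9 called, where 4.39% of all genes were called higher. Hspe1 had 0.92 ± 0.20 at RC8 (adjusted p = 0.12), 0.34 ± 0.20 at RC12 and 0.08 ± 0.20 at RC24. At RC8 no member was called, with 0.161% of all genes, and Hspe1 alone had an unadjusted p under 0.05. At RC12 and RC24 no member and no gene was called, with no member but 844 and 617 genes at an unadjusted p under 0.05. At AS Hspe1 had 0.30 ± 0.13 (adjusted p = 0.80, unadjusted p = 0.045) and again no member was called, with 0.0908% of all genes. The 4 recovery libraries are single, and all 5 comparisons share the NT libraries. Summed markers of proliferating cells (7 of 8 listed) were 1001 in NT and 443 in RC4 of set 4, which was not tested for a part in this.

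Without the block, as the comparison was set up, edgeR called no member and no gene at any of the 5 times. Unadjusted p under 0.05 was found for 1 member, Hspe1 at RC4 (2.31 ± 0.52), and for 21 to 525 genes. DESeq2 without the block called Hspe1 at RC4 (adjusted p = 0.0075) and no other member.

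Several CCT subunits differed more between the sets than within them. Cct3 was at 84.3 and 107 normalised RPM in NT and AS of set 1, 145 and 137 in set 2, and 628 to 841 in the 6 libraries of set 4. Cct6a was at 195 and 200 in set 1, 38.5 and 42.5 in set 2 and 24.9 to 42.7 in set 4. Cct2 was at 522 and 576, 418 and 399, and 1351 to 1975. Cct3 and Cct2 were thus highest in set 4 with no overlap, and Cct6a was highest in set 1. Within set 4, RC4 held the highest value of Tcp1 (3132 against 2164 to 2334), Cct7 (1791 against 1140 to 1339) and Cct8 (1993 against 1144 to 1500). With the block, these 3 had 0.43 ± 0.25, 0.59 ± 0.24 and 0.62 ± 0.20 at RC4, with adjusted p of 0.35, 0.18 and 0.098. The 8 CCT values with the block ran from 0.06 to 0.62 at RC4, with a median of 0.36 against 0.00 over all genes, and medians at the other times were 0.12 at AS, -0.07 at RC8, 0.04 at RC12 and -0.06 at RC24.

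**Figure D3:**
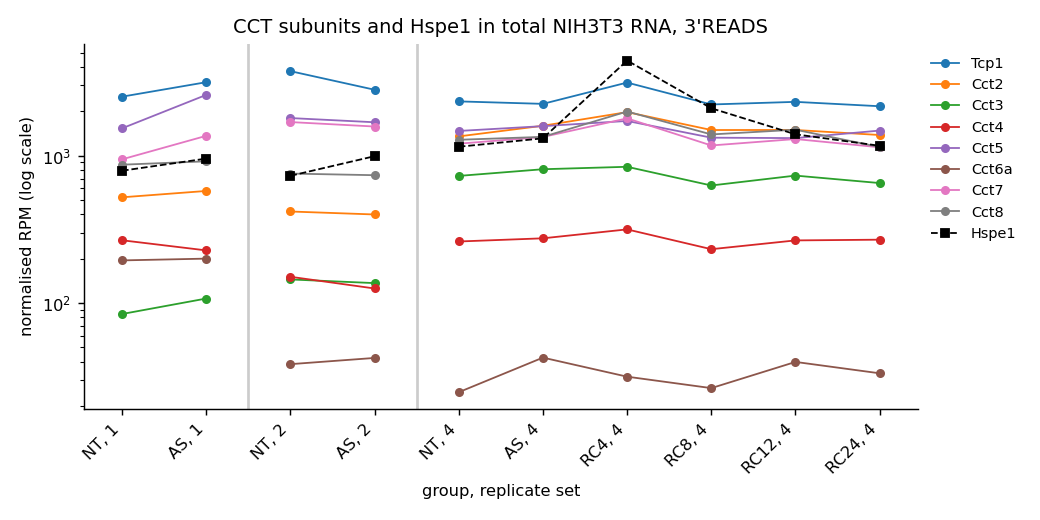
Normalised RPM (log axis) of the CCT genes and Hspe1 in the 10 libraries of total NIH3T3 RNA, with lines joining libraries of the same set. Hspe1 peaks at RC4 and returns by RC24, and Cct2, Cct3 and Cct6a sit at different levels in the 3 sets.

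Labelled RNA made in the last hour and pre-existing RNA were compared next. In the 4sU fraction, Hspe1 was at 1180 and 886 normalised RPM in NT, 2370 in AS and 8207 in RC4. It was thus above both NT libraries already during arsenite, by 1.20 ± 0.22 on the log2 scale (edgeR, adjusted p = 0.017), the only member called, with 2.26% of all genes called higher. Without the second 4sU NT library the value was 1.00 and the adjusted p 0.055. At RC4 the change was 2.99 ± 0.22 (adjusted p = 2.8e-05).

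In the flow-through, Hspe1 was at 1927 and 1661 in NT, 2274 in AS and 17772 in RC4. The AS value of 0.34 ± 0.22 did not pass the test (adjusted p = 0.70), and no member was called at AS (0.631% of all genes called, and no member at an unadjusted p under 0.05 or by DESeq2). At RC4 Hspe1 was 3.31 ± 0.22 higher (adjusted p = 1.1e-05). The difference between the fractions in the AS change was -0.86 ± 0.32 (adjusted p = 0.49). With the sample from which both fractions came as a block it was -0.87 ± 0.18 (adjusted p = 0.00033), the only member called, with 2.91% of all genes called lower. The spread in the blocked fit comes from the NT pair alone, since AS and RC4 have 1 sample each. The difference in the RC4 change was 0.31 ± 0.18 with the block (adjusted p = 0.32), and no member was called where 8.47% of genes were.

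Of the CCT genes, Cct7 rose in both fractions at RC4. It went from 569 and 526 to 894 in 4sU RNA (0.71 ± 0.19, adjusted p = 0.023) and from 1125 and 1059 to 2331 in Ft RNA (1.09 ± 0.19, adjusted p = 0.0027). Cct7 and Hspe1 were the 2 members called in 4sU, with 12.9% of all genes called higher. The Cct7 call in 4sU was lost without the second 4sU NT library or without either Ft NT library (adjusted p 0.052 to 0.063, value 0.64 to 0.72). In Ft, Cct2 (621 and 610 to 1124, 0.87 ± 0.19, adjusted p = 0.0085) and Cct6a (38.9 and 48.3 to 78.4, 0.84 ± 0.27, adjusted p = 0.047) were called as well, which made 4 members with 14.0% of all genes called higher. Of these, library totals kept Hspe1 and Cct7, with 8.16% of all genes. TMM called 7, but the share of all genes called with TMM is not given, so this count may rise with that share.

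The remaining CCT genes missed the threshold in Ft at RC4, Cct8 at 0.63 ± 0.21 (adjusted p = 0.052), Cct5 at 0.60 ± 0.20 (0.056), Cct4 at 0.56 ± 0.20 (0.064), Tcp1 at 0.68 ± 0.24 (0.068) and Cct3 at 0.44 ± 0.20 (0.14). Medians over the 8 CCT genes at RC4 were 0.66 in Ft and 0.39 in 4sU, against 0.00 and -0.01 over all genes. Dropping the first Ft NT library, which left the 4 h control, ended the calls of Cct2 and Cct6a (0.88 and 0.70), and dropping the second ended that of Cct2 (0.85). Without the first 4sU NT library Cct6a was lost as well (0.83, adjusted p = 0.055), and without either 4sU NT library Tcp1 (0.67), Cct5 (0.59) and Cct8 (0.62 and 0.63) were called. In the heat shock list, all 18 of 18 rose in both fractions, and Hspa9 rose in both as well (0.95 ± 0.19 in 4sU and 1.03 ± 0.19 in Ft). Among prefoldin genes Pfdn4 rose in 4sU (0.90 ± 0.24) and Pdcl in Ft (0.88 ± 0.23).

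In untreated cells, the chaperonin mRNAs were richer in the flow-through than in the labelled fraction, a ratio that the study took as a measure of mRNA stability after adjusting it for uridines. The values tested here are not adjusted. Cct3 was at 312 and 312 normalised RPM in Ft and 156 and 138 in 4sU, a log2 ratio of 1.09 ± 0.17 (adjusted p = 0.00059). Cct7 was at 1125 and 1059 in Ft and 569 and 526 in 4sU (1.00 ± 0.16). Tcp1 had the lowest ratio, 1386 and 1158 against 1031 and 719 (0.54 ± 0.20, adjusted p = 0.052). Ft was above 4sU in both libraries for each of the 9 members. Without the block 8 were called higher, with 19.7% of all genes. With the block 9 were called (Tcp1 0.56 ± 0.11, adjusted p = 2.2e-06), and the share of all genes called with it is not given here. Some of these calls rest on single libraries. Cct4 (0.57 ± 0.16) was lost without the second 4sU or either Ft NT library (0.49 to 0.59), and Cct6a (0.66 ± 0.24) without either 4sU or the second Ft NT library (0.49 to 0.82). Cct6a was also lost with DESeq2 (adjusted p = 0.17), with library totals (0.47, adjusted p = 0.14) and with 3′ end sites only (0.63, adjusted p = 0.058), and Cct4 with library totals (0.38, adjusted p = 0.075). Cct8 (0.74 ± 0.18) and Hspe1 (0.80 ± 0.18) were lost without the first Ft NT library (0.68 and 0.69), and Tcp1 was gained without the first 4sU NT library (0.82).

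The number of uridines in a transcript affects how readily it is labelled. After regression of the ratio on the number of uridines over 10531 genes, Hspe1, whose short transcript has 193, fell from 0.80 to 0.05, and from the 80.0th to the 44.3rd percentile of genes. The CCT genes, with 390 to 682 uridines, kept 0.45 (Cct6a) to 1.04 (Cct7). There is no test of the adjusted values. Of 12 actin, tubulin and tubulin cofactor genes, 8 were called higher in Ft, led by Tuba1a (1.54 ± 0.19), while Pdcl went the other way (-1.44 ± 0.19).

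TIA1 pull-downs held less Hspe1 RNA than the cytoplasmic input. Hspe1 was at 134 and 249 normalised RPM in the TIA1 libraries of NT cells and 818 and 950 in the input, and at 227 and 146 against 896 and 994 in AS cells. Its log2 ratio was -2.20 ± 0.43 in NT (edgeR, adjusted p = 0.037) and -2.34 ± 0.44 in AS (adjusted p = 0.046), a 4.61-fold and 5.06-fold depletion with no overlap between the groups. Without a block it was the only member that edgeR called lower, with 1.7% of all genes in NT and 0.773% in AS. With 2 libraries a group these calls are fragile: the NT call was lost without either input NT library or without the first TIA1 NT library (value -2.31, -2.11 and -1.80). The AS call was lost without any 1 of the input or TIA1 AS libraries (-2.70 to -2.05) or of the input NT libraries (-2.34 and -2.35).

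Cct7 was next, at 290 and 405 in TIA1 against 820 and 1780 in the input of NT cells (-1.90 ± 0.46, adjusted p = 0.059), followed by Cct4 at 82.0 and 85.1 against 229 and 231 (-1.46 ± 0.34, adjusted p = 0.053). In neither gene did the groups overlap. By the protocol, the input was a part of the lysate used for the pull-down. With the replicate number as a block, which also joins the NT and AS libraries of a number, 4 members were called lower in NT, where 9.67% of all genes were. These were Hspe1 (-2.22 ± 0.35, adjusted p = 0.0022), Cct7 (-1.84 ± 0.29, 0.0022), Cct4 (-1.46 ± 0.27, 0.0046) and Cct6a (-1.11 ± 0.34, 0.044). The same 4 were called lower in AS with the block, where 8.46% of all genes were, Hspe1 at -2.32 ± 0.35 (0.0025), Cct6a at -1.43 ± 0.34 (0.016), Cct7 at -1.07 ± 0.28 (0.027) and Cct4 at -0.88 ± 0.27 (0.046). The Cct6a counts include reads at an intronic small RNA end, described below. That site held 66.0% and 66.4% of Cct6a reads in the AS inputs and 40.9% and 28.6% in TIA1 of AS cells. DESeq2 without the block called Hspe1, Cct4 and Cct7 in NT and Hspe1 and Cct4 in AS. Cct8 lay nearest to 0, at -0.21 ± 0.37 in NT and 0.21 ± 0.37 in AS. The medians over the 8 CCT genes were -0.72 in NT and -0.89 in AS, against 0.07 and 0.04 over all genes. No member was called for the change of the ratio between AS and NT, nor was any gene (edgeR, no member and 212 genes at an unadjusted p under 0.05, no member by DESeq2). The Hspe1 value was -0.14 ± 0.59. In the input itself, no member was called between AS and NT (0.0103% of all genes called, no member at an unadjusted p under 0.05 or by DESeq2).

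In C2C12 cells, Hspe1 again rose during recovery, in both myoblasts and myotubes. In MB cells it was at 3016 and 2548 normalised RPM in NT, 2994 in AS and 10359 in RC4. In MT cells it was at 1002 and 874 in NT, 860 in AS and 5447 in RC4. The RC4 library lay above the other 3 in each cell state, while AS lay inside or just below the NT pair. The log2 fold change at RC4 was 1.90 ± 0.20 in MB (edgeR, adjusted p = 0.025) and 2.54 ± 0.20 in MT (adjusted p = 0.0074).

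Hspe1 was the only member called at RC4 in either state, with 0.814% of all genes called higher in MB and 1.08% in MT. The difference of this change, MT minus MB, was 0.64 ± 0.29 and did not pass its test (adjusted p = 0.61). Both Hspe1 calls were lost when either MT NT library was left out (1.90 in MB, 2.64 and 2.45 in MT). At AS no member was called in MB (0.0893% of all genes) or MT (0.0496%), with none at an unadjusted p under 0.05 and none by DESeq2. Summed arsenite-response markers were 1094 and 3615 normalised RPM in MT NT, 2992 in MT AS and 12709 in MT RC4. The 4 h MT control thus lay above MT AS. In MB cells the sums were 2902 and 3499 in NT and 10324 in AS. Their part in the MT comparisons was not tested.

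The CCT genes at RC4 had positive values in both states, with medians of 0.69 in MB and 0.39 in MT. Cct7 was largest, at 885 and 792 in NT and 1792 in RC4 of MB (1.10 ± 0.19, adjusted p = 0.063), and at 450 and 497 against 847 in MT (0.84 ± 0.20, adjusted p = 0.13). Cct8 followed in both, at 0.80 ± 0.18 (0.091) and 0.65 ± 0.18 (0.18). DESeq2 called Cct7 and Cct8 in MB. Without the first MB NT library edgeR called Cct5 (1.28), Cct7 (1.18) and Cct8 (0.77) there, and without the second Cct7 (1.02) and Cct8 (0.84). In MT, Cct7 and Cct8 were called without either MB NT library (0.83 and 0.84 for Cct7, 0.64 and 0.65 for Cct8). Scaled by library totals, 2 CCT genes had values below 0 in MB, Tcp1 (-0.12) and Cct2 (-0.33), and none in MT. The heat shock list rose in 10 of 18 genes in MB and 12 of 18 in MT, and Hspa9 rose in MT (1.47 ± 0.19, adjusted p = 0.035).

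**Figure D4:**
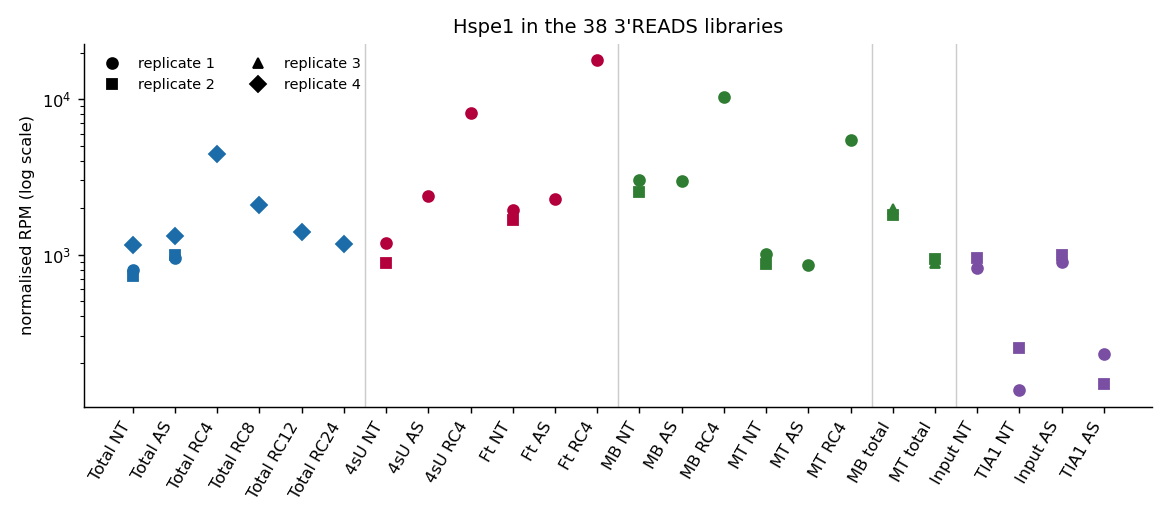
Normalised RPM (log axis) of Hspe1 in each of the 38 3′READS libraries, grouped by experiment (scaled within each experiment) and marked by replicate number. RC4 is highest in every stress series, and the TIA1 libraries lie below their inputs.

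Untreated myotubes had less chaperonin mRNA than myoblasts. In total RNA, Hspe1 was at 934 and 879 normalised RPM in MT and 1791 and 1969 in MB, a 2.07-fold difference (log2 -1.05 ± 0.09, edgeR, adjusted p = 7.2e-08). Tcp1 was at 687 and 713 against 1233 and 1143 (-0.76 ± 0.09, adjusted p = 2.4e-06). Cct6a was at 190 and 199 against 317 and 309 (-0.69 ± 0.10). The groups did not overlap in any of these 3 genes.

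Cct3 (-0.45 ± 0.10), Cct7 (-0.44 ± 0.09), Cct2 (-0.33 ± 0.10, adjusted p = 0.0076) and Cct8 (-0.25 ± 0.09, adjusted p = 0.030) were lower as well, which made 7 of 9 members, with 29.3% of all genes called lower. Cct5 (-0.13 ± 0.09, adjusted p = 0.20) and Cct4 (-0.01 ± 0.11) did not pass. The Cct8 call was lost without the second MB library or either MT library (-0.31 to -0.17), and that of Cct2 without the second MT library (-0.23). In the same comparison Actb, an actin that CCT folds, fell by 2.35 on the log2 scale, and 7 of 12 substrate and tubulin cofactor genes fell while 4 rose. Of 12 genes of mitochondrial protein quality control 6 were called higher, led by Lonp1 (1.70 ± 0.19), where 32.5% of all genes were. Summed markers of proliferating cells (8 of 8 listed) were 2737 and 3070 in MB and 323 and 333 in MT, and summed fibroblast markers (4 of 6 listed) 2018 and 2114 against 13640 and 15899. Their part in the chaperonin difference was not tested.

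The isoform comparison asked whether arsenite shifted the use of the 2 main 3′UTR sites. In NT and AS of sets 1 and 2 of total RNA, 2858 genes had enough reads, 7 chaperonins among them, and the call needed Fisher's exact p under 0.05 and a change over 5 percentage points in the same direction in sets 1 and 2. Cct5 was the only member called, with 3.32% of all genes. Its distal share was 34.2% in NT and 23.1% in AS of set 1, and 48.8% and 31.8% in set 2 (Fisher's exact p = 1.5e-36 and 1.2e-122, two-sided). In set 4 it was 20.6% and 20.8%, and Cct5 was not called where set 4 was required in place of set 1 or set 2. The Cct5 sites are 70 nt apart, and the distal share in the 4 further set 4 libraries was 18.7 to 21.7%. Counting intervals and Fisher's test cover counting error only, since PCR reads are not independent molecules.

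Hspe1 did not pass at AS, where its distal share went from 4.76 to 5.97% in set 1, from 9.94 to 8.65% in set 2 and from 15.6 to 16.4% in set 4. Within each stress series, the share was then compared with RC4. In 4sU RNA the distal isoform made up 6.47% and 7.43% of Hspe1 reads in NT, 6.52% in AS and 3.15% in RC4 (95% Wilson interval 2.96 to 3.35% over 30174 reads). In Ft RNA it made up 9.23% and 8.64%, 7.48% and 3.77%. In MB cells it was 13.2% and 11.8% in NT and 7.81% in RC4, and in MT cells 14.2% and 13.5% against 6.22%. In set 4 of total RNA it was 15.6% in NT, 10.5% in RC4, 12.6% in RC8, 14.2% in RC12 and 17.3% in RC24. RC4 thus held the lowest Hspe1 share within each of the 5 series, where set 4 stands for total RNA, with a single RC4 library in each and no test. NT and AS of sets 1 and 2 were lower than RC4 of set 4.

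Cct4, whose distal site adds 2899 nt, differed most between RNA pools. The distal isoform was 40.3% and 30.2% of Cct4 reads in the TIA1 libraries of NT cells against 14.3% and 7.19% in the input, and 15.1% and 17.2% against 9.31% and 6.56% in AS cells. In 4sU RNA of NT cells it was 13.9% and 13.5%, and in Ft RNA 4.22% and 4.43%. The pools did not overlap in these 3 comparisons, which have 2 libraries a group and no test. The shares in 4sU and Ft RNA are not adjusted for uridines, and the longer isoform may be labelled more readily. The part of labelling in this difference was not tested. In total RNA the share was 20.1% in both libraries of set 2, above 3.84 to 7.89% in the other sets, and AS and NT of each set lay within 1.15 percentage points of each other.

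**Figure D5:**
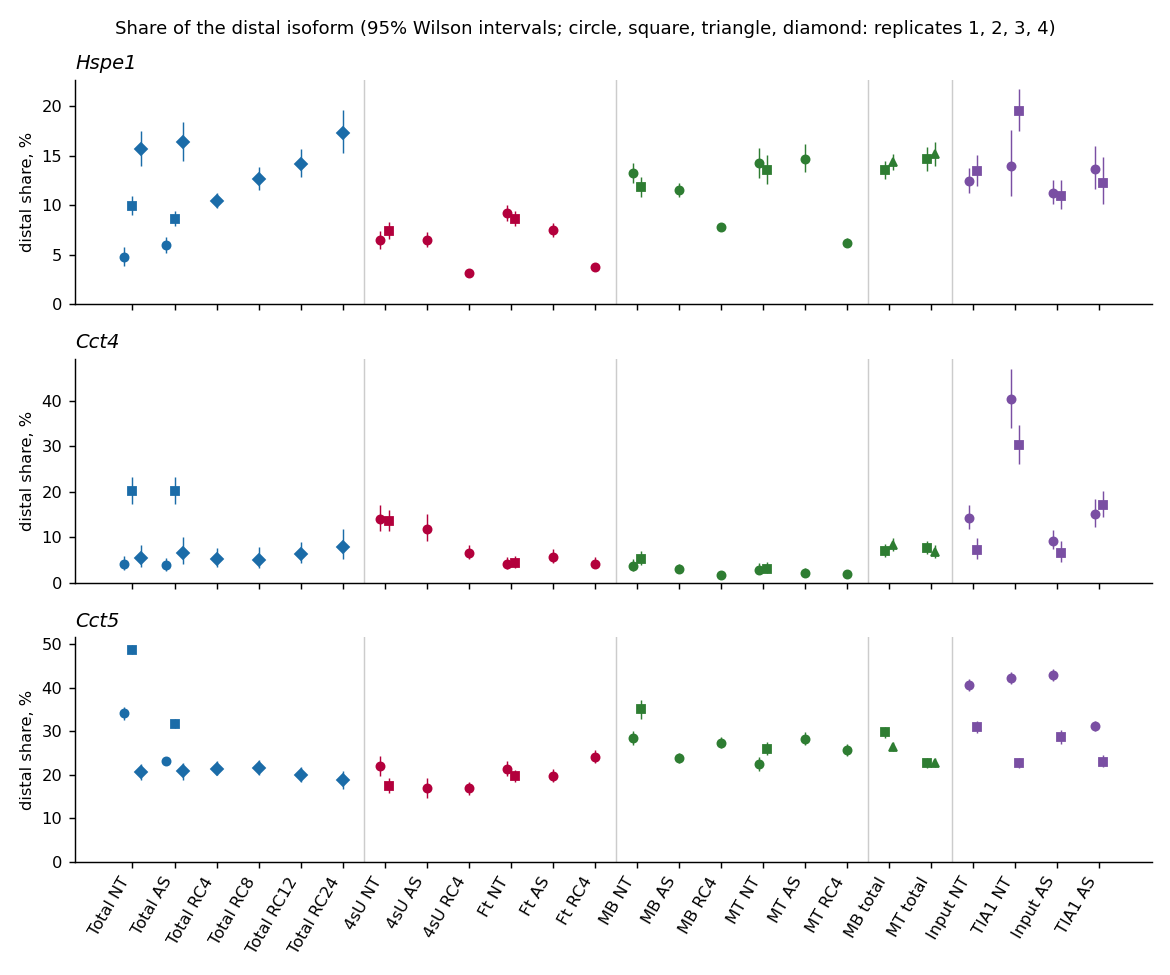
Share (%) of reads at the distal of the 2 main 3′UTR sites of Hspe1, Cct4 and Cct5 in each 3′READS library, with 95% Wilson intervals. The Hspe1 share is lowest at RC4 within each stress series (in total RNA within set 4), the Cct4 share is highest in TIA1 libraries of NT cells, and the Cct5 share falls at AS in 2 of the 3 sets.

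Tcp1 and Cct6a also host small nucleolar RNAs (snoRNAs) in their introns, and 3 of their PAS clusters lay within 10 nt of an annotated snoRNA end. These were at 13112585 (SNORA29) and 13115791 (Snora20) on chromosome 17 in Tcp1 and at 130295553 (SNORA22) on chromosome 5 in Cct6a. The SNORA29 site held 11.7% and 14.9% of Tcp1 reads in NT and AS of set 1. Its share was 4.44% and 4.49% in set 2 and 0.33 to 2.45% in set 4. In NT cells the share was 6.19% and 13.7% in the input and 3.85% and 6.36% in TIA1. The Tcp1 values above count these reads. The 30 bases before the Cct6a site (mm9 chr5:130295524-130295553, plus strand) held no poly(A) signal but the ACA box of this snoRNA class, shown in capitals.
SNORA22 end in Cct6a: aatgtattcagaaagtcagcACAccattaa

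Reads at this end changed the picture for Cct6a. The SNORA22 site was at 9.88 and 18.6 RPM in the input of NT cells and 41.5 and 85.9 in AS. In total RNA it was at 12.0, 4.14 and 0 RPM in NT and 40.3, 12.3 and 12.7 in AS of sets 1, 2 and 4. AS was above NT in each of these pairs, and in the AS inputs the site made up 66.0% and 66.4% of Cct6a reads. In the TIA1 libraries of AS cells it was at 12.9 and 14.3 RPM, or 40.9% and 28.6% of Cct6a reads. In NT cells the share was 26.3% and 29.2% in the input and 16.1% and 42.6% in TIA1. The TIA1 calls of Cct6a count these reads, and the blocked fit was not repeated without them. The Cct6a value of AS against NT in the input was 0.81 ± 0.58 with all sites and -0.56 ± 0.56 with 3′ end sites only, also a setting added later, and neither was called. With 3′ end sites only, the Ft call of Cct6a at RC4 was lost as well (0.73 ± 0.28, adjusted p = 0.091).

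The CCT genes moved together to different degrees. Across the 38 3′READS libraries, after each gene's mean within each experiment was subtracted from log2 normalised RPM, the Pearson r of each subunit with the mean of the other 7 ranged from 0.330 for Cct6a and 0.355 for Cct3 to 0.826 for Cct7 and 0.871 for Cct4. Hspe1 had r = 0.839 with the mean of the 8, rank 9 of 3663 genes with at least 20 reads in every library. The 5 genes most like that mean were Lgals3 (0.904), Gsto1 (0.874), Anxa4 (0.860), S100a10 (0.853) and Pou2f3 (0.853). The libraries share treatments, sets and depth, so these values describe the libraries and carry no test. Counts of Cct6a and Tcp1 include the reads at snoRNA ends, and no r without those reads is given.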

How the data were processed

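The authors trimmed reads with Cutadapt, mapped 3′READS reads to mm9 with bowtie2 and RNA-seq reads with STAR, and grouped PASs that lay within 24 nt. The files that the authors deposited hold raw counts of reads, by PAS in 38 libraries and by the coding sequence of each gene in 4. PCR duplicates are not stated to be removed. The deposited counts were used as they are. PAS positions within 24 nt were joined across libraries, and clusters were assigned by position to genes of the mm9 annotation up to 4000 nt past their end (87.3% of reads, median). In the RNA-seq files 18 gene symbols altered by a spreadsheet were left out.

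Counts per gene were tested with edgeR 4.0.16 (glmQLFit and glmQLFTest, R 4.3.3), with median-ratio scaling, the filterByExpr filter, all libraries of an experiment in 1 fit, 1 mean per group and Benjamini-Hochberg adjustment over all genes tested (threshold 0.05). Isoform shares used Fisher's exact test (scipy 1.17.1) where each isoform had over 5 reads. Copies were searched with blastn 2.17.0. Named genes were the 10 members in every comparison, of each other list at most 3 genes past the threshold with the largest absolute log2 fold change, and the 5 genes most like the CCT mean (log2 with a pseudocount of 1). The members and gene lists were chosen with earlier results of these data known.

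Replicate numbers paired NT and AS in total RNA, where deviations of same-numbered libraries from the group means correlated at r = 0.863, 0.847 and 0.795. 4sU and Ft fractions came from the same samples by design (same-numbered r = 0.149 in NT), and so did TIA1 and input libraries of a condition (same-numbered r = 0.305 in NT and 0.333 in AS). Alternatives were TMM scaling, no filter, DESeq2 1.42.0, the replicate block, each library left out, other controls, the number of uridines and the isoform criteria. Scaling by library totals and the use of 3′ end sites only were added later, with the data known. Simulated data with 200 changed genes served as a test, in which the fit recovered 64% of 2-fold and 86% of 4-fold changes for RC4 in RNA-seq (11631 genes), 25% and 75% in Ft (10778 genes), and 8% and 61% in total RNA with the block against 0% and 0% without it (9916 genes). Of the calls made there, 5.66% were false in RNA-seq, 9.09% in Ft and 1.43% in total RNA with the block.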

Additional observations from a re-analysis of the deposited data

Results flagged for a closer look

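Hspe1 differed between the fractions in its response to 1 h of arsenite when the sample behind each pair of fractions was a block, with a difference of -0.87 on the log2 scale between the AS change in Ft RNA and that in 4sU RNA (edgeR, adjusted p = 0.00033). Hspe1 was at 2370 normalised RPM in 4sU AS against 1180 and 886 in NT, and at 2274 in Ft AS against 1927 and 1661, so that the AS library lay above both NT libraries in each fraction. Without the block the value was -0.86 and the adjusted p 0.49, and there is 1 AS library per fraction. The spread with the block comes from the NT libraries alone. There, deviations of same-numbered 4sU and Ft libraries correlated at only r = 0.149.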

How the results depend on the processing

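Of 2431 values of single genes under alternatives, 2313 kept their direction and their side of the threshold, 52 gained and 52 lost a call, 9 moved and 5 reversed. These totals count some fits again, since leaving out an NT library could also give the control of the same harvest time. The reversed values are those of RC4 in RNA-seq under library totals, Cct3 (-0.013), Cct4 (-0.051), Cct5 (-0.091), Cct6a (-0.41) and Tcp1 (-0.018), where 4 of 10 members were called in place of 10. The median of all genes stood at -0.80 under this scaling.

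Numbers of members called changed by over 1.5 times as follows, and the cause was not tested. The share of all genes called is not given beside each count, so a higher count may come with more calls among all genes. TMM gave 7 in Ft RC4 (in place of 4) and 0 for TIA1 in AS (in place of 1). Library totals gave 1 in 4sU RC4 (in place of 2), 2 in Ft RC4 and 0 for TIA1 in AS. DESeq2 gave 1 in total RNA RC4 (in place of 0), 3 and 2 for TIA1 in NT and AS (in place of 1 and 1) and 3 in MB RC4 (in place of 1). No filter gave 3 for TIA1 in NT. The control of the same harvest time gave 0 in 4sU AS (in place of 1), 2 in Ft RC4, 4 in MB RC4 and 0 in MT RC4 (in place of 1), each with 1 NT library fewer. Requiring all 3 pairs gave 0 isoform calls (in place of 1). Smaller changes were 9 in RNA-seq RC4 with TMM and with DESeq2 (in place of 10), 3 in 4sU RC4 with TMM, DESeq2, 3′ end sites only and the control of the same harvest time, 6 with DESeq2, 5 with no filter and 3 with 3′ end sites only in Ft RC4, 9 with TMM and no filter, 6 with library totals and 7 with 3′ end sites only for Ft against 4sU (in place of 8), and 8 with library totals for MT against MB (in place of 7).

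With 1 library left out, the number called ranged from 0 to 1 in 4sU AS, 1 to 3 in 4sU RC4, 2 to 7 in Ft RC4, 5 to 8 for Ft against 4sU, 0 to 1 for TIA1 in NT and in AS, 0 to 4 in MB RC4 and 0 to 3 in MT RC4, and was 0 for isoforms without set 1 or set 2. Where a group kept 1 library, it was assumed to vary like the others.

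The replicate block gave 1 member in total RNA RC4 (in place of 0) and 1 for the change of Ft against 4sU at AS (in place of 0). For TIA1 the block gave 4 in NT and 4 in AS (in place of 1 and 1), and in C2C12 total RNA it called 7, as without it. For Ft against 4sU it gave 9 in place of 8, and it changed no other count. For RNA-seq, the fit against the control of the same harvest time has no residual degrees of freedom, and the uridine adjustment has no test, so both give values only.

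Depth limits the Cct6a isoforms, with 34 and 30 reads in NT and AS of set 4. For RC4 in total RNA, the only time simulated there, the fit without the block recovered no 4-fold change, so its count of 0 says little.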
